A study of Mus musculus with 6 samples.

Results

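The mouse mitochondrial genome carries 37 genes, and all of them had a row in the count tables of these tumours. The rows were chosen by name and place, as every row whose name starts with mt- and whose position is on the mitochondrial chromosome. Measured values did not decide which rows belong, but earlier results of these data were known when the rows were chosen. They are 37 of the 53599 rows: 13 encode proteins of the respiratory chain and ATP synthase, 2 encode the ribosomal RNAs of the mitochondrial ribosome and 22 encode transfer RNAs. The other 53562 rows are nuclear.

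The tumours grew from LG1233-OVA, a line of mouse lung cancer with ovalbumin as a model antigen. The control group, sgNT, by its name a non-targeting guide, is labelled WT and Control. The other group, sgUhrf1, came from a stable line in which CRISPR/Cas9 was used to knock out Uhrf1, whose protein is known for keeping DNA methylation in place through cell division. Female C57BL/6 mice received 1000000 cells of either line subcutaneously, and tumours were taken on day 27, 3 per group. The labels give neither the age of the mice nor whether each line is a single clone. The labels call the 3 tumours of a group biological replicates and do not say that each came from its own mouse, so the p-values measure the spread between these tumours. Whole tumours were used, so host cells, whose Uhrf1 is intact, are part of every value, and in such bulk samples fewer cells of a type and less RNA per cell cannot be told apart.

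The tables held 5462555 to 6375069 counts per tumour. The main row over Uhrf1 exons held 841, 917 and 554 counts in sgNT and 685, 460 and 409 in sgUhrf1 tumours, with a log2 fold change of -0.37 ± 0.23 (SE) and an edgeR adjusted p of 0.227. A knockout can leave its transcript in place and host cells keep the gene, so this row does not check the labels. Chi-square values between tumours of 1 group were 19.0 to 59.3 per degree of freedom over rows with a minimum count in the pair, so no pair was 1 library deposited under 2 names.

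Mitochondrial DNA is transcribed from both strands into long precursors that run through many genes. In most places a tRNA lies between neighbouring genes, and its excision by RNase P and the ELAC2 nuclease frees the RNAs on both sides. Most mitochondrial mRNAs then receive a short poly(A) tail from the poly(A) polymerase Mtpap. Of the 37 rows, 28 lie on the strand the annotation writes as plus, which is transcribed from the heavy strand promoter. The other 9, mt-Nd6 and 8 tRNA rows, lie on the minus strand. The genes are packed tightly: the rows cover 15365 of the 15422 bases up to the end of mt-Tp, and 9 pairs of neighbours overlap.

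This packing bears on the counts. Read pairs were counted without strand, so RNA of either strand over a row is counted together, and the counter was not set to assign a pair to several rows at once. tRNA rows are only 59 to 75 bases long. The libraries were made from RNA held on poly-T beads, so the rRNA and tRNA values below are levels in that selected RNA and not in total RNA.

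Sequences of the rows on which the results turn are from the GENCODE M21 transcripts of GRCm38, whose mitochondrial positions are those of the count tables, and are written 5′ to 3′ on the strand of the gene. mt-Tp (proline tRNA, chrM:15356-15422, minus strand) held the most counts of any tRNA row and is the last annotated row before the control region. mt-Tc (cysteine tRNA, chrM:5192-5257, minus strand) is separated by 32 unannotated bases, the place of the light strand replication origin, from mt-Tn (asparagine tRNA). For mt-Atp8 (chrM:7766-7969, plus strand), the coding row with the fewest counts, capitals mark the 43 bases it shares with mt-Atp6. For mt-Nd4 (chrM:11003-11082, plus strand) a stretch inside the gene is shown because a nuclear copy ends there: capitals mark bases that are also in the nuclear pseudogene Gm28439, and the lower case bases that follow lie outside it. For the end of mt-Nd4l (chrM:10144-10173, plus strand) capitals mark the 7 bases shared with the start of mt-Nd4.
mt-Tp: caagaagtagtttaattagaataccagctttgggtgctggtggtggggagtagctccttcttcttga
mt-Tc: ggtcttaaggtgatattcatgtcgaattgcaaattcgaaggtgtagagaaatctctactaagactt
mt-Atp8: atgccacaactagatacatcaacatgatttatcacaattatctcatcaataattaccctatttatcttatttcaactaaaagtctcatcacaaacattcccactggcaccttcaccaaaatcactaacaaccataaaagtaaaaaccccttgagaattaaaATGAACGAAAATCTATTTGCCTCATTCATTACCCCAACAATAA
mt-Nd4, end of the copied part: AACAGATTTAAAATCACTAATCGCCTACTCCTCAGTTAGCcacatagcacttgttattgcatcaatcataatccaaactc
mt-Nd4l, last bases: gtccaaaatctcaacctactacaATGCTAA

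The 37 rows held 2696615 of 35176944 counts over the 6 tumours, or 7.67%. Coding rows held 2632812 of these, rRNA rows 58886 and tRNA rows 4917. Between 25 and 30 of the rows had at least 1 count in a tumour. The 7 rows without a count in any tumour were all tRNA rows: mt-Tf, mt-Tv, mt-Ti, mt-Tq, mt-Td, mt-Tk and mt-Tt. A count of 0 over the 6 tumours allows up to 0.0853 counts per 1000000. This is a limit on counted pairs and not on RNA, since pairs over several rows or placed in several positions were not counted. Intervals and such limits cover counting error only, since reads without molecular identifiers are not independent molecules.

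Levels between rows were compared as length-scaled counts, that is counts per kb of row and per 1000000 counts of the tumour. mt-Co1, the catalytic subunit of cytochrome c oxidase, stood highest, with length-scaled counts of 23932, 17274 and 25744 in sgNT tumours and 24948, 23745 and 28528 in sgUhrf1 tumours. mt-Cytb, the cytochrome b of complex III, followed with a mean of 10385 over the 6 tumours, and mt-Nd1, a membrane subunit of complex I, with 8947. mt-Co1 was above mt-Cytb in 6 of 6 tumours and mt-Cytb above mt-Nd1 in 5 of 6. Together mt-Co1, mt-Cytb and mt-Nd1 took 73.1% to 78.7% of the mitochondrial counts of a tumour, and mt-Co1 alone 44.6% to 54.6%.

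The next 4 rows, all complex I subunits, lay close together: mt-Nd6 had a mean of 4247, mt-Nd4 4116, mt-Nd2 3909 and mt-Nd5 3056 length-scaled counts. Their order was not stable, since mt-Nd6 was above mt-Nd4, and mt-Nd4 above mt-Nd2, in only 3 of 6 tumours. The row of mt-Nd6, the 1 protein gene on the minus strand, was above that of its plus-strand neighbour mt-Nd5 in 6 of 6 tumours. Without strand, counts on mt-Nd6 cannot be assigned to its transcript or to RNA of the other strand over it. The ratio of mt-Nd6 to mt-Nd5 per kb was 1.18, 1.28 and 1.07 in sgNT tumours and 1.51, 1.49 and 1.68 in sgUhrf1 tumours. The 2 groups did not overlap in this ratio, which was computed after the values were seen and was not tested.

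The rRNA rows were lower, as far as poly-T selected RNA shows them. mt-Rnr1, the RNA of the small ribosomal subunit, had a mean of 898 length-scaled counts and mt-Rnr2, that of the large subunit, 527. mt-Rnr1 was the higher of them in 6 of 6 tumours, by 1.46 to 2.39 times per kb. mt-Tp stood above both rRNA rows, at a mean of 1434, and above mt-Rnr1 in 6 of 6 tumours.

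**Figure D1:**
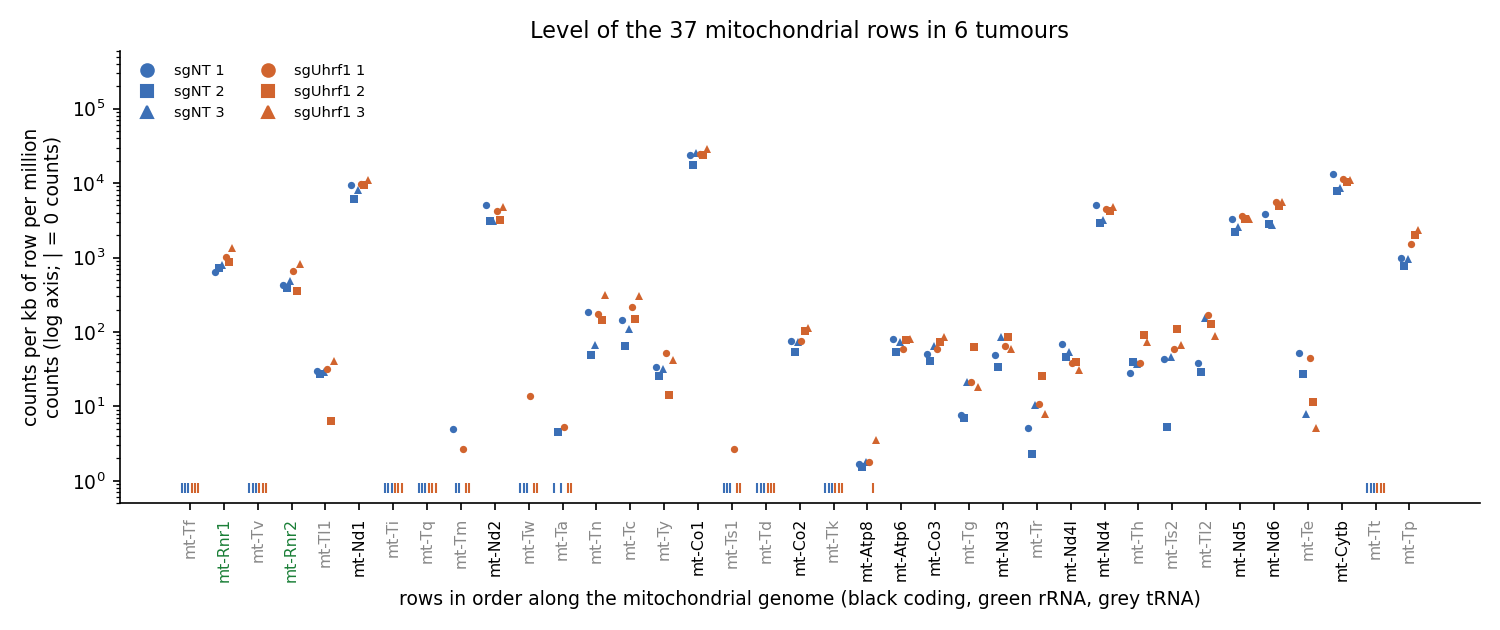
Length-scaled counts (per kb of row and per 1000000 counts, log axis) for the 37 mitochondrial rows in map order, with 1 symbol per tumour (sgNT blue, sgUhrf1 orange) and vertical ticks at the bottom for rows with 0 counts. mt-Co1, mt-Cytb and mt-Nd1 stand highest, and the rows from mt-Co2 to mt-Nd4l lie near or below 100 in every tumour.

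The coding rows between mt-Co1 and mt-Nd4 had far lower levels than their neighbours. mt-Co2 and mt-Co3, the other mitochondrial subunits of cytochrome c oxidase, had means of 82.3 and 62.5 length-scaled counts, mt-Atp6 and mt-Atp8, the ATP synthase subunits of its membrane part, 70.6 and 1.71, and the complex I subunits mt-Nd3 and mt-Nd4l 62.5 and 46.2. These 6 rows held 6639 counts in all, 0.207% to 0.290% of the mitochondrial counts of a tumour. Most of them have near-identical nuclear copies, and pairs that aligned to several places were not counted, by the settings in the file headers.

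A cluster of 7 annotated pseudogenes on chromosome 1 (24611535 to 24616197, minus strand, GRCm38) carries a stretch of the mitochondrial genome. The first 681 bases of mt-Co2 are identical to Gm28661 (24614885 to 24615565), the first 678 of mt-Atp6 to Gm10925 (24613974 to 24614651), the first 783 of mt-Co3 to Gm28437 (24613189 to 24613971) and the first 294 of mt-Nd4l to Gm10222 (24612407 to 24612700). mt-Nd3 differs from Gm28438 (24612775 to 24613119) in 1 of 345 bases, T3C, where positions count from the first base of mt-Nd3, its base comes first and that of the copy second. In the same cluster Gm28439 (24611535 to 24612410) holds the first 876 bases of mt-Nd4, and the last 502 bases of that gene lie outside it.

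The rows were ordered by the share of their bases that lie in exact 100-base matches to annotated nuclear transcripts. In 5 of the 15 coding and rRNA rows this share was over 95%: 99.6% for mt-Co2 and mt-Atp6, 99.9% for mt-Co3, 98.3% for mt-Nd3 and 99.0% for mt-Nd4l. These 5 rows had mean levels of 46.2 to 82.3 length-scaled counts. The 6 rows with no such match other than mt-Atp8 (mt-Rnr1, mt-Rnr2, mt-Nd1, mt-Nd5, mt-Nd6 and mt-Cytb) had mean levels of 527 to 10385. The ranges did not overlap. By the counter settings, pairs marked as placed in several positions were not counted, and the labels and headers do not say how the alignments were filtered before that. The level of these 5 rows therefore cannot be read as that of the transcript.

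The other 3 rows are copied in part and had high levels. mt-Co1 had 48.1% of its bases in exact matches, and its longest aligned copy, Gm13340 on chromosome 2 (22588103 to 22589647), is 97.6% identical to it over 1545 bases. mt-Nd4 had 63.6% and mt-Nd2 12.4%. Where along mt-Nd4 its pairs lie, in the copied part or in the uncopied end shown above, was not tested. mt-Atp8 held 2, 2 and 2 counts in sgNT and 2, 0 and 4 in sgUhrf1 tumours. It has no exact match of 50 bases or more among annotated transcripts. Its last 43 bases, shared with mt-Atp6, are also in the copy Gm10925. The stretch between the copies of mt-Atp6 and mt-Co2 on chromosome 1 is 233 bases long and unannotated. mt-Atp8 has 161 bases of its own outside mt-Atp6, and the sequence of the unannotated stretch was not analysed here.

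A row listed as Col19a1 covers 127 bases of Gm10925, the copy of mt-Atp6, and 141 bases of Col19a1 exon at the positions of GRCm38. It held 645, 439 and 546 counts in sgNT and 503, 684 and 452 in sgUhrf1 tumours, more than the 316, 233 and 275 and the 218, 342 and 306 of mt-Atp6 itself. Its pairs from the collagen gene and from the copy cannot be told apart. The other 3 rows that lie over copies of mitochondrial rows held at most 60 counts over the 6 tumours.

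**Figure D2:**
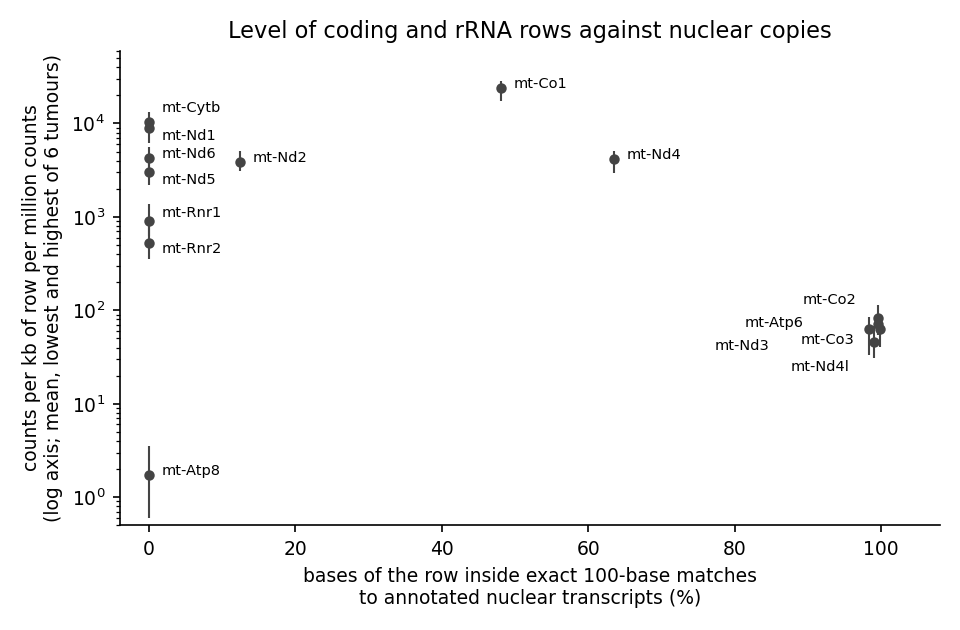
Level of the 15 coding and rRNA rows (length-scaled counts, log axis; point at the mean, bar from the lowest to the highest of 6 tumours, and for mt-Atp8, with 0 counts in 1 tumour, cut at the foot) against the percent of their bases in exact 100-base matches to annotated nuclear transcripts. The 5 rows above 95% lie between 46.2 and 82.3, and mt-Atp8 lies lowest with no such match.

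tRNA rows differed greatly in counts. mt-Tp held 3371 of the 4917 tRNA counts, 62.9% to 72.8% of them in each tumour. The 8 tRNA rows of minus-strand genes held 4272 counts, most of them on mt-Tp, mt-Tn and mt-Tc, and the 14 of plus-strand genes 645. Counting without strand does not give the strand of this RNA. mt-Tn held 382 and mt-Tc 377, and these 2 rows lie on the 2 sides of the unannotated replication origin. mt-Tp likewise borders an unannotated stretch, the control region with the promoters, while its other neighbour, mt-Tt, directly adjoins it and held 0 counts.

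The other tRNA rows with at least 10 counts in all were mt-Tl2 (leucine) with 248, mt-Th (histidine) with 123, mt-Ts2 (serine) with 114, mt-Ty (tyrosine) with 77, mt-Tl1 (leucine) with 71, mt-Te (glutamate) with 60, mt-Tg (glycine) with 56 and mt-Tr (arginine) with 25. mt-Th, mt-Ts2 and mt-Tl2 adjoin each other between mt-Nd4 and mt-Nd5. The 4 remaining rows, mt-Tw, mt-Ta, mt-Tm and mt-Ts1, held 1 to 5 counts each.

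The comparison asked how the mitochondrial RNA of sgUhrf1 tumours differed from that of sgNT tumours. Mitochondrial rows took 8.29%, 5.58% and 7.28% of all counts in sgNT and 8.36%, 7.71% and 9.05% in sgUhrf1 tumours. The groups overlapped, and sgNT replicate 2 was lowest. Wilson 95% intervals of the single tumours ran from 5.56% to 8.31% in sgNT and from 7.68% to 9.07% in sgUhrf1, so counting error is small beside the spread between tumours. The means were 7.05% ± 1.37 and 8.37% ± 0.671 (SD, n = 3 each), a difference of 1.32 percentage points with a two-sided exact permutation p of 0.2, where 3 against 3 tumours cannot give less than 0.1.

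After scaling by TMM, which sets the libraries to a common level over most rows, the summed mitochondrial level was higher in every sgUhrf1 tumour than in every sgNT tumour. The difference was 0.43 on the log2 scale, with an exact permutation p of 0.1, the smallest possible with n = 3 per group. The scaling factor of sgUhrf1 replicate 3 was 0.813 and those of the other 5 tumours were 0.995 to 1.09.

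Within the mitochondrial counts, tRNA rows and mt-Nd6 took larger shares in sgUhrf1 tumours. tRNA rows took 0.129%, 0.127% and 0.136% in sgNT and 0.191%, 0.238% and 0.247% in sgUhrf1 tumours, with no overlap. The means were 0.130% ± 0.00464 and 0.226% ± 0.0300 (SD, n = 3 each; exact permutation p = 0.1, adjusted over the 5 make-up values 0.25). Counting intervals (Wilson, 95%) ran from 0.116% to 0.147% and from 0.179% to 0.262%, so the groups were apart beyond counting error as well.

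mt-Nd6, a complex I subunit, took 2.43%, 2.59% and 1.97% of mitochondrial counts in sgNT and 3.42%, 3.34% and 3.20% in sgUhrf1 tumours. The groups did not overlap, and the means were 2.33% ± 0.323 and 3.32% ± 0.109 (SD, n = 3 each; exact permutation p = 0.1, adjusted 0.25). Neither value can pass the threshold in a design of this size.

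The other classes overlapped. rRNA rows took 1.55%, 2.38% and 2.10% in sgNT and 2.41%, 1.80% and 2.88% in sgUhrf1 tumours (exact permutation p = 0.4, adjusted 0.5). Coding rows took 98.3%, 97.5% and 97.8% against 97.4%, 98.0% and 96.9% (exact permutation p = 0.4, adjusted 0.5). The log2 ratio of mt-Rnr2 to mt-Rnr1 counts was 0.18, -0.17 and -0.0071 in sgNT and 0.14, -0.53 and 0.0099 in sgUhrf1 tumours (exact permutation p = 0.7, adjusted 0.7). sgUhrf1 replicate 2 stood apart with the low ratio, and it held 3614 counts on mt-Rnr2 against 5766 and 7345 in the other sgUhrf1 tumours.

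**Figure D3:**
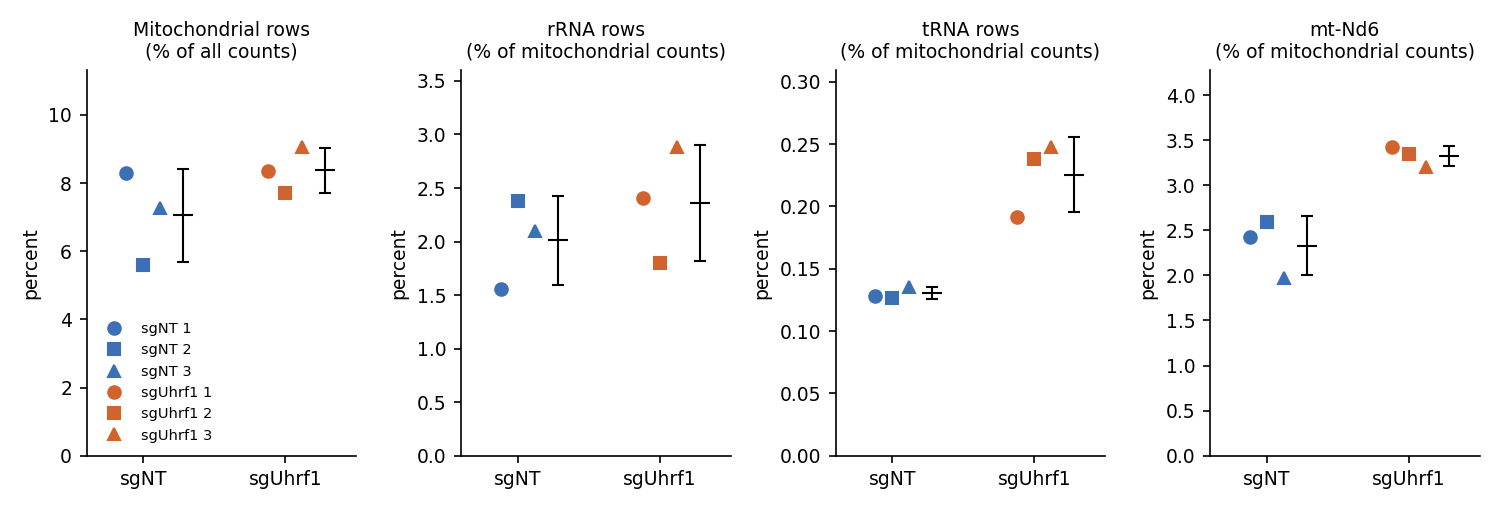
Percent of all counts on mitochondrial rows (first panel) and percent of mitochondrial counts on rRNA rows, tRNA rows and mt-Nd6 (other panels); symbols are tumours, and the horizontal mark and bar are the mean and SD of 3 tumours. The groups overlap in the first 2 panels and lie apart for tRNA rows and mt-Nd6.

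Row by row, 23 of the 37 mitochondrial rows passed the filter on low counts and were tested in edgeR with all other rows: 12 coding, 2 rRNA and 9 tRNA rows. The 14 untested rows were mt-Atp8 and 13 tRNA rows. At an adjusted p of 0.05, 5 rows were higher in sgUhrf1 tumours (mt-Tp, mt-Nd6, mt-Tc, mt-Rnr1 and mt-Co2) and 0 were lower; 9 had an unadjusted p under 0.05. The 5 higher rows are 21.7% of those tested, near the background of 20.2% of all 10503 rows tested that were higher, while 19.7% of all rows were lower and 39.9% were called in either direction. The log2 fold change was above 0 in 21 rows and below 0 in 2, with a median of 0.55 (coding 0.46, rRNA 0.74, tRNA 1.13) beside 0.019 over all rows tested. Mitochondrial rows come from shared precursors and are not independent of each other.

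Scaled counts of 9 of the 23 rows did not overlap between groups, 39.1% against 54.4% of all rows. In 8 of them sgUhrf1 was the higher group, 34.8% against 26.6% of all rows. These 8 were mt-Rnr1, mt-Nd1, mt-Tc, mt-Co2, mt-Ts2, mt-Nd5, mt-Nd6 and mt-Tp. Of them mt-Ts2, with 15, 2 and 15 counts in sgNT tumours, would not have passed the filter on low counts from sgNT tumours alone. The ninth, mt-Nd4l, was lower in sgUhrf1 tumours.

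Of the rRNA rows, mt-Rnr1 held 3503, 4454 and 4265 counts in sgNT and 5238, 5224 and 7295 in sgUhrf1 tumours. This is 657 ± 101 against 1120 ± 422 TMM-scaled counts per 1000000 (CPM; SD, n = 3 each), a log2 fold change of 0.77 ± 0.27 (SE) with an edgeR adjusted p of 0.0471. The call was lost, with adjusted p-values of 0.0508 to 0.152, when any tumour other than sgUhrf1 replicate 2 was left out, and without both muscle-rich tumours (0.138). mt-Rnr2 held 3966, 3972 and 4244 against 5766, 3614 and 7345 counts. Its groups overlapped, with a change of 0.70 ± 0.33 (edgeR adjusted p = 0.118), and the row passed without sgUhrf1 replicate 2 (0.99, edgeR adjusted p = 0.0155).

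Of the 7 complex I rows, which encode the membrane arm that pumps protons, only mt-Nd6 passed. It held 11675, 9201 and 7977 counts in sgNT and 15616, 16410 and 16287 in sgUhrf1 tumours, or 1542 ± 267 against 2984 ± 524 CPM (SD, n = 3 each). The groups were far from overlapping. The log2 fold change was 0.95 ± 0.22 (edgeR adjusted p = 0.00951), and the row passed in 13 of 15 alternative analyses. It was not past the threshold without sgNT replicate 2 (0.84, adjusted p = 0.0616) or without both muscle-rich tumours described below (0.92, adjusted p = 0.107).

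None of the complex I rows of plus-strand genes passed the edgeR test, and their difference from mt-Nd6 was not tested. Counts without strand do not tell which strand's RNA differs on the mt-Nd6 row. mt-Nd1 held 52019, 37162 and 42466 counts against 51226, 57484 and 59182, a log2 fold change of 0.55 ± 0.27 (adjusted p = 0.133). mt-Nd5 held 34752, 25325 and 26098 against 36312, 38656 and 34123, a change of 0.53 ± 0.24 (adjusted p = 0.101). In both rows the raw counts overlapped and the scaled counts did not. mt-Nd2 had a change of 0.30 ± 0.29 (adjusted p = 0.449), mt-Nd3 of 0.47 ± 0.36 (0.330) and mt-Nd4 of 0.46 ± 0.27 (0.206).

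mt-Nd4l went the other way: it held 117, 86 and 90 counts in sgNT and 63, 74 and 52 in sgUhrf1 tumours, with no overlap. Its scaled level was 15.7 ± 2.89 against 11.4 ± 0.296 CPM (SD, n = 3 each), a log2 fold change of -0.46 ± 0.27 that did not pass the test (edgeR adjusted p = 0.210). The row rests on few counts and on a gene that is 99.0% copied in the nucleus.

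mt-Cytb, the single mitochondrial subunit of complex III, held 87374, 57324 and 54782 counts in sgNT and 71946, 74973 and 69834 in sgUhrf1 tumours. The groups overlapped, with sgNT replicate 1 highest of all, and the log2 fold change was 0.32 ± 0.28 (edgeR adjusted p = 0.389).

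Of the cytochrome c oxidase rows, mt-Co1 held 214583, 169637 and 221165 against 210553, 233880 and 247667 counts, with overlap and a change of 0.39 ± 0.33 (edgeR adjusted p = 0.370). mt-Co2, which is copied nearly whole in the nucleus, held 296, 234 and 276 against 286, 450 and 434 counts, or 43.5 ± 7.69 against 72.5 ± 22.4 CPM (SD, n = 3 each). Its change of 0.74 ± 0.26 passed narrowly (edgeR adjusted p = 0.0491). The call was lost when any tumour other than sgUhrf1 replicate 1 was left out, with adjusted p-values of 0.0774 to 0.201, and also with total counts only (0.0965), in limma-voom (0.0582), with the replicate block (0.0643) and without the muscle-rich tumours (0.103). It held in 6 of 15 alternatives. mt-Co3 held 229, 201 and 284 against 252, 371 and 380 counts and did not pass (0.68 ± 0.28, edgeR adjusted p = 0.0844). The ATP synthase row mt-Atp6 had a change of 0.26 ± 0.26 (edgeR adjusted p = 0.439), with overlapping counts given above.

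The proline tRNA row mt-Tp had the smallest adjusted p of all mitochondrial rows. It held 389, 327 and 354 counts in sgNT and 561, 850 and 890 in sgUhrf1 tumours, or 57.6 ± 7.93 against 143 ± 48.7 CPM (SD, n = 3 each). Every sgUhrf1 tumour was above every sgNT tumour, in raw and in scaled counts. The log2 fold change was 1.31 ± 0.26 (edgeR adjusted p = 0.00432), and it passed in 15 of 15 alternative analyses, with fold changes of 1.02 to 1.51 on the log2 scale. Without strand, these counts cannot be assigned to the tRNA or to RNA of the other strand that runs over it.

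mt-Tc, the cysteine tRNA row, held 56, 27 and 40 counts in sgNT and 78, 63 and 113 in sgUhrf1 tumours, which did not overlap. Its log2 fold change was 1.28 ± 0.43 (edgeR adjusted p = 0.0422). Leaving out sgNT replicate 2, sgNT replicate 3, sgUhrf1 replicate 1 or sgUhrf1 replicate 3 took it out of the calls, with adjusted p-values of 0.0660 to 0.147, as did total counts only (0.0716), limma-voom (0.0502) and leaving out both muscle-rich tumours (0.187). mt-Tn, on the other side of the replication origin, held 77, 22 and 26 against 67, 65 and 125 counts. sgNT replicate 1 overlapped the sgUhrf1 tumours, and the change of 1.30 ± 0.56 did not pass (edgeR adjusted p = 0.0926). Without that tumour it was 2.04 and passed (edgeR adjusted p = 0.0229).

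None of the other 6 tested tRNA rows passed. mt-Ts2 held 15, 2 and 15 counts in sgNT and 19, 41 and 22 in sgUhrf1 tumours (1.47 ± 0.67, edgeR adjusted p = 0.107), with sgNT replicate 2 lowest. From sgNT tumours alone mt-Ts2 would not have passed the filter on low counts. mt-Th held 11, 17 and 14 against 14, 39 and 28 (1.13 ± 0.49, adjusted p = 0.0981). mt-Tl2 held 16, 13 and 61 against 65, 58 and 35 (0.91 ± 0.61, adjusted p = 0.264), and sgNT replicate 3 stood far above the other sgNT tumours. Without sgNT replicate 3 the change of mt-Tl2 was 2.07 and passed (edgeR adjusted p = 0.0152).

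The remaining 3 tested rows held few counts. mt-Ty held 6 to 19 counts in a tumour (0.41 ± 0.57, edgeR adjusted p = 0.60) and mt-Tl1 3 to 17 (0.056 ± 0.66, adjusted p = 0.954). mt-Te held 21, 12 and 3 counts against 17, 5 and 2 (-0.40 ± 0.81, adjusted p = 0.730). The untested mt-Tg held 3, 3 and 8 counts against 8, 27 and 7, and mt-Tr 2, 1 and 4 against 4, 11 and 3, in both cases with sgUhrf1 replicate 2 highest.

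To separate the make-up of mitochondrial RNA from its amount, the same test was run with the mitochondrial total of each tumour as its library size. Only mt-Tp then passed, with a log2 fold change of 0.85 ± 0.31 (edgeR adjusted p = 0.0347); on this scale 10.4% of all rows were higher and 25.1% lower. It did not pass when any single tumour was left out (0.77 to 1.00, adjusted p = 0.0546 to 0.109). mt-Nd6 had a change of 0.51 ± 0.26 (adjusted p = 0.137), mt-Tc of 0.83 ± 0.46 (0.166), mt-Rnr1 of 0.26 ± 0.29 (0.505), mt-Co2 of 0.29 ± 0.33 (0.523) and mt-Nd4l of -0.86 ± 0.42 (0.121). mt-Co1, the largest single part of the total, was at -0.046 ± 0.25 (0.905). The median over the 23 rows was 0.12. In 6 of the 23 rows the shares of the mitochondrial total did not overlap between groups: mt-Nd1, mt-Tc, mt-Ts2, mt-Nd6 and mt-Tp were higher in sgUhrf1 tumours and mt-Nd4l lower. These 6 rows are 26.1% of those tested, against 50.4% of all rows on this scale, and the 5 higher ones are 21.7%, against 14.6% of all rows. The higher ones include mt-Ts2, which would not have passed the filter on low counts from sgNT tumours alone.

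**Figure D4:**
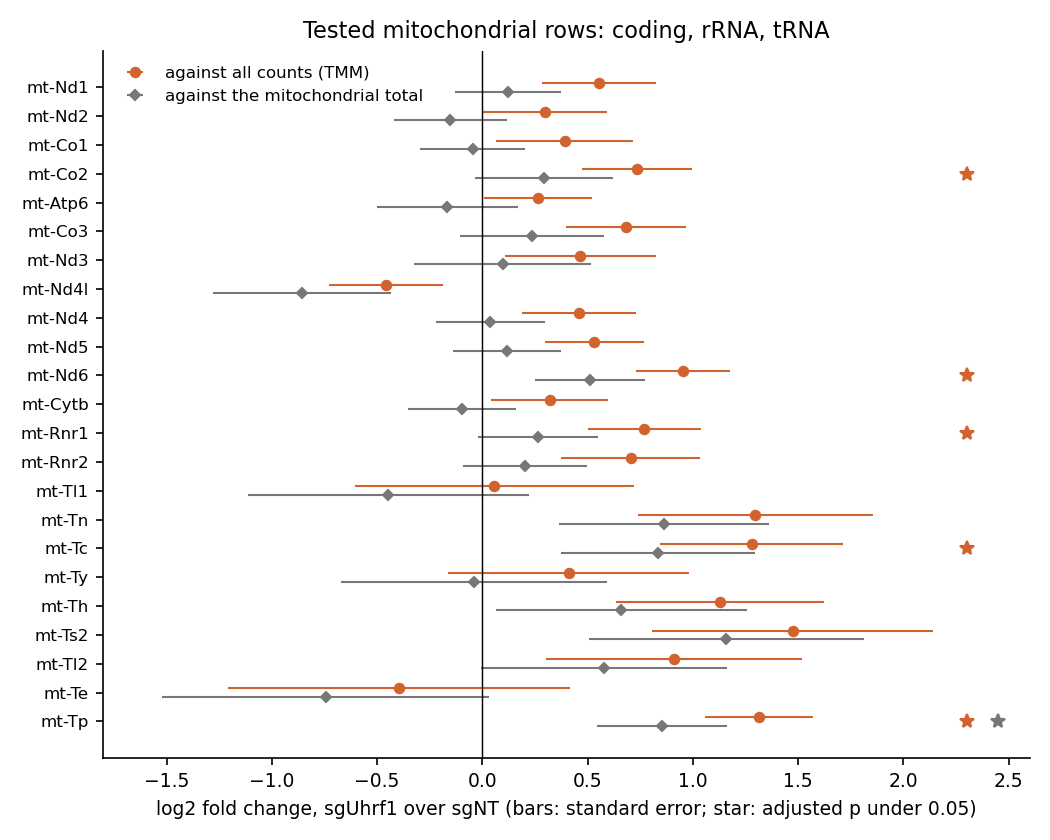
log2 fold change, sgUhrf1 over sgNT, of the 23 tested rows relative to all counts after TMM scaling (orange circles) and relative to the mitochondrial total (grey diamonds); bars are standard errors and stars mark an adjusted p under 0.05. Relative to all counts 21 of 23 rows lie above 0 and 5 pass; relative to the mitochondrial total mt-Tp alone passes.

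Most respiratory chain subunits are encoded in the nucleus, made in the cytosol and imported, so nuclear lists were set beside the mitochondrial rows. Nuclear row names in these tables belong to another genome build, and a nuclear gene was measured only where a row covers at least 50 bases of its exons and of no other gene at GRCm38 positions. This named 41 of the 153 listed genes, of which 38 were tested: 6 were higher and 2 lower in sgUhrf1 tumours, with a median log2 fold change of 0.16. These are 15.8% and 5.26% of the tested genes, both under the 20.2% and 19.7% of all rows. Among the nuclear subunits of the respiratory chain and ATP synthase 19 of 84 genes were tested, with 4 higher (21.1%), 1 lower (5.26%) and a median of 0.46. The higher ones include Atp5l, which would not have passed the filter on low counts from sgNT tumours alone. Without the 2 muscle-rich tumours described below, 1 gene was higher, in complex I, and 1 lower, a synthetase, so that neither Atp5l nor Pnpt1 nor Pprc1 passed.

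In complex I, 9 of 37 nuclear subunit genes were tested. Ndufa5 was at 84.8 ± 24.9 CPM in sgNT and 196 ± 68.1 in sgUhrf1 tumours (SD, n = 3 each), a log2 fold change of 1.21 ± 0.29 (edgeR adjusted p = 0.00962). Ndufa10 rose from 89.6 to 168 CPM (0.90 ± 0.21, edgeR adjusted p = 0.00961) and Ndufs3 from 54.1 to 93.8 (0.79 ± 0.21, adjusted p = 0.0149).

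In the other complexes 1 gene passed. Atp5l, a membrane subunit of ATP synthase, rose by 2.49 ± 0.57 on the log2 scale (edgeR adjusted p = 0.00861), but its row held 80 counts over the 6 tumours. It was at 1.11, 0.593 and 0.354 CPM in sgNT tumours and would not have passed the filter on low counts from them alone. Sdhb, the iron-sulfur subunit of complex II, had a change of 0.52 ± 0.22 (adjusted p = 0.0863). None of 3 complex III genes passed; Uqcrc1 was at 0.46 ± 0.18 (0.0657) and Uqcrc2 at -0.29 ± 0.20 (0.275). None of 4 complex IV genes passed; Ndufa4 was at 0.40 ± 0.27 (0.273) and Cox5a at 0.18 ± 0.19 (0.469).

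Of the genes that maintain mitochondrial DNA and make and process its RNA, 8 of 37 were tested and 1 passed. Pnpt1, the polynucleotide phosphorylase known for degrading mitochondrial RNA, including RNA of the light strand, held 90.3, 63.0 and 47.1 CPM in sgNT and 139, 136 and 114 in sgUhrf1 tumours. The groups did not overlap (0.96 ± 0.24, edgeR adjusted p = 0.0134). Of 6 tested synthetases, which charge tRNAs with their amino acid, only Gars passed, and the median log2 fold change was -0.12. Gars fell from 105 to 48.9 CPM (-1.11 ± 0.26, edgeR adjusted p = 0.00944), on a row with 186 bases of its exon. Of 5 tested regulators of biogenesis, Pprc1, a coactivator of the PGC-1 family, rose from 138 to 208 CPM (0.59 ± 0.16, edgeR adjusted p = 0.0176).

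Markers of other cells were set beside the mitochondrial values. Skeletal muscle, which is rich in mitochondria and lies next to tumours under the skin, was read from 11 of 25 listed genes. Their summed level was 107, 800 and 101 CPM in the sgNT and 651, 78.1 and 114 CPM in sgUhrf1 tumours, so sgNT replicate 2 and sgUhrf1 replicate 1 were rich in muscle RNA. The former had the lowest mitochondrial share of all tumours and the latter the second highest. Without both tumours the difference in mitochondrial share was 0.593 percentage points (exact permutation p = 0.667), 1 mitochondrial row was higher, mt-Tp, and no mitochondrial row was lower in edgeR. The log2 fold changes of the other 4 called rows were then 0.89 for mt-Rnr1, 0.79 for mt-Co2, 0.92 for mt-Nd6 and 1.11 for mt-Tc, with 2 tumours left per group.

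**Figure D5:**
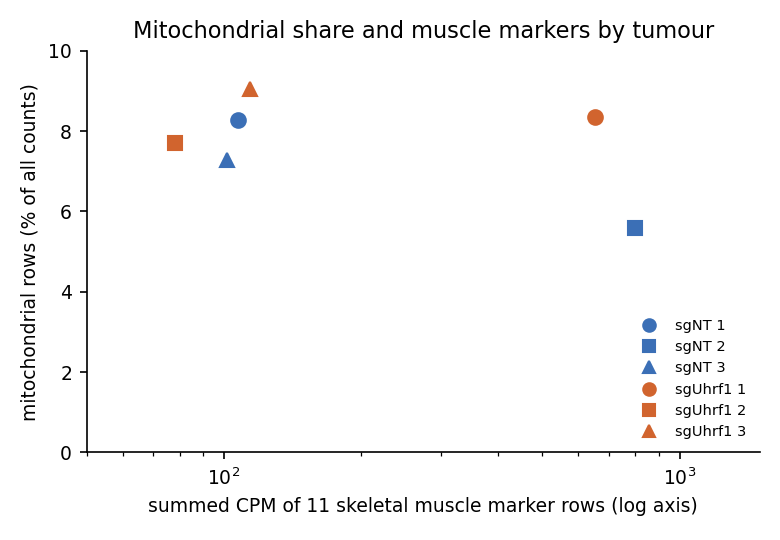
Percent of all counts on mitochondrial rows against the summed CPM of 11 skeletal muscle marker rows (log axis), with 1 symbol per tumour (sgNT blue, sgUhrf1 orange). The tumours with 800 and 651 CPM of muscle markers have mitochondrial shares of 5.58% and 8.36%, and the other 4 lie between 7.28% and 9.05%.

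T cell markers (7 of 15 listed genes measured, Cd6 at 0) summed to 7.26 to 25.0 CPM in sgNT and 83.3 to 215 CPM in sgUhrf1 tumours. All 4 tested members were higher, but Cd8b1 and Zap70 would not have passed the filter on low counts from sgNT tumours alone. Of all rows tested, 20.2% were higher and 19.7% lower. Macrophage markers (6 of 12) summed to 504 to 789 and 278 to 957 CPM, with 1 of 5 tested members lower. Keratinocyte markers (6 of 10) summed to 68.1 to 112 and 35.2 to 83.3 CPM. Most of this sum was the row of Lor, the 1 tested member, which was lower (means 97.0 and 39.1 CPM). The untested Dsg3, Krt15 and Krt5 went the other way, with means of 0, 0.0591 and 0.0528 against 6.31, 2.92 and 6.93 CPM. Krt5 was high in sgUhrf1 replicate 2 only, and Krt1 and Trp63 reached at most 0.317 CPM. Adipocyte markers (2 of 10) reached at most 3.52 CPM and red blood cell markers (4 of 7, with Hbb-bt and Slc4a1 among those at 0) at most 1.76 CPM. The part that muscle or immune cells have in the differences of mitochondrial rows was not tested.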

How the data were processed

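RNA of 6 whole tumours was sequenced as paired reads from poly-T selected libraries, per the labels' protocols. The authors deposited whole-number counts of read pairs per gene. Per the submitters' processing notes, fastp, STAR and featureCounts were used with build GRCm38. Per the file headers, featureCounts 2.0.1 counted exon pairs by gene name in GENCODE M26, a GRCm39 annotation, with no strand setting and without counting multi-mapping pairs. All 37 mitochondrial rows have the same positions in GENCODE M21 (GRCm38); 13418 nuclear rows were renamed by M21 exons, and those over several genes were not used for the lists. Counts were tested with edgeR 4.0.16 in R 4.3.3 (quasi-likelihood, TMM, filterByExpr with minimum count 10 and minimum total 15, Benjamini-Hochberg over 10503 rows, threshold 0.05) and checked on simulated data; CPM are per 1000000 TMM-scaled counts. Single values per tumour were compared by exact permutation. Nuclear copies were sought with exact windows and blastn 2.17.0 in M21 transcripts; unannotated sequence was not analysed here. The members and lists were chosen with earlier results of these data known. Every coding and rRNA row and each tRNA row with at least 10 counts is named; of each nuclear list, up to 4 genes past the threshold with the largest change, or up to 2 with the highest level where none passed. Results of some listed genes are not reported here. Alternatives were other scalings, filters, tools (DESeq2 1.42.0, limma-voom 3.58.1), a replicate block and left-out tumours.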

Additional observations from a re-analysis of the deposited data

How the results depend on the processing

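Of 339 refitted fold changes of mitochondrial rows under 15 alternatives, 297 kept their direction and side of the threshold, 24 fell out, 9 came in and 9 changed sign. The number of rows higher in sgUhrf1 tumours (5) was 3 with total counts only, 8 in DESeq2, 1 without the muscle-rich tumours and 1 to 5 when single tumours were left out; none was lower in any of these. Total counts alone moved the median of all rows to -0.14 and that of the mitochondrial rows to 0.37. Against the mitochondrial total, the 1 row called became 0 without a filter, without the muscle-rich tumours and without each single tumour (range 0 to 0). The cause of these losses was not tested; leaving out tumours also leaves fewer samples.

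The changes of sign were in values that had not passed the test. The difference in the log2 ratio of mt-Rnr2 to mt-Rnr1 was 0.072 without sgUhrf1 replicate 2 and ran down to -0.26 without the other single tumours. mt-Tl1 was at -0.14 with total counts only, -0.0074 with no filter, -0.049 without the muscle-rich tumours and -0.40 in limma-voom, and it ran from -0.57 to 0.54 without single tumours, below 0 without sgNT replicate 2 and without sgUhrf1 replicates 1 and 3. mt-Te ran from -1.56 to 0.25 without single tumours, above 0 only without sgNT replicate 1. Of the nuclear list genes, 1 was lower with at least 200 bases of exon, and without the muscle-rich tumours, an alternative chosen after seeing the data, 1 was higher and 1 lower.

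The groups share replicate numbers, but same-numbered tumours had correlations of -0.079, -0.021 and 0.050 in their deviations, so the numbers do not pair them. With the replicate block 4 mitochondrial rows were higher, mt-Co2 being lost (adjusted p = 0.0643), and 0 lower, 1 against the mitochondrial total, and mt-Tl1 was at -0.18. The block left the share difference at 1.32 percentage points (exact sign-flip p = 0.25, the smallest possible for 3 pairs).

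Of the 22 tRNA rows, 13 held too few counts to be tested.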
